A study of Mus musculus with 6 samples.

Results

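The 89 genes described here encode the nuclear-encoded subunits of respiratory chain complexes I, III and IV and of ATP synthase, together with a few assembly factors of complex I. They were selected by name alone, as every protein-coding gene of the deposited table with a symbol beginning in *Ndufa*, *Ndufb*, *Ndufc*, *Ndufs*, *Ndufv*, *Uqcr*, *Cox4i*, *Cox5*, *Cox6*, *Cox7*, *Cox8* or *Atp5*. This gave 89 of 20066 listed genes, of which 14257 were protein coding. By role, 37 belonged to complex I, 8 to complex III, 18 to complex IV and 17 to ATP synthase, 8 were complex I assembly factors of the *Ndufaf* series, and the *Cox5b* copy *Cox5b-ps* was left without a role. *Ndufa4* and its paralogue *Ndufa4l2* were counted with complex IV, to which the NDUFA4 protein belongs. Complex II was outside the selection, and so was the complex III subunit cytochrome *c1* (*Cyc1*), whose symbol does not match, so it is not in the complex III counts and sums.

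Total RNA came from primary cardiomyocytes of C57BL/6 mice at P0-1 (the day of birth or the day after), prepared from dissociated hearts. They spent 96 h in αKG, a form of the Krebs cycle intermediate α-ketoglutarate that enters cells, or in the solvent dimethylsulfoxide (DMSO) as the control, with 3 libraries in each group. The labels give 100 µM of αKG, and the methods of the study another concentration. No transgene, deletion or other agent is labelled for either group. For stained neonatal cells, the methods of the study count a single isolation from the hearts of several pups as a sample, and its replicate numbers as independent experiments. The labels do not say whether this holds for the sequenced libraries, so p-values measure only the spread between these libraries, which may be technical. Levels are normalized read counts rounded to whole numbers, and the depth estimated from the spacing of low values was 3726069 to 4427908 reads in genes per library.

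Oxidative phosphorylation is carried out in the inner mitochondrial membrane. Complexes I and II pass electrons from NADH and succinate through complex III and cytochrome *c* to complex IV, which reduces oxygen, and ATP synthase uses the proton gradient built by complexes I, III and IV. Most subunits are encoded in the nucleus, some of the catalytic core in mitochondrial DNA, and heart muscle, which depends on this pathway, also uses muscle isoforms of several complex IV subunits.

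The transcription factor NRF1 is known to bind a palindromic element upstream of many respiratory chain genes. RefSeq windows around the transcript start (GRCm38.p6, from 250 bases before to 50 bases after it) matched 72 of the 89 genes by symbol, 5 of them with more than 1 window. The element of 10 bases, made of the half-site GCGCA joined to its reverse complement and so the same on both strands, was present in 7 of the 72 genes (9.72%), against 290 of 27025 genes with a window (1.07%). The 7 elements are shown, since of the motifs searched this one had the highest ratio of the share in these genes to that in all genes, though the smallest difference in percentage points. Each line gives 30 bases on the strand of the gene, 5′ to 3′, with the element in capitals.
*Atp5g2*, chr15:102671070-102671099, minus strand: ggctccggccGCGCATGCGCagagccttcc
*Atp5k*, chr5:108434430-108434459, minus strand: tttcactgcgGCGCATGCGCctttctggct
*Cox6a1*, chr5:115349101-115349130, minus strand: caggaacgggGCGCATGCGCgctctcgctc
*Ndufa11*, chr17:56717692-56717721, plus strand: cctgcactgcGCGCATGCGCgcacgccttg
*Ndufaf4*, chr4:24897960-24897989, plus strand: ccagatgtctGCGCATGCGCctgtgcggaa
*Ndufaf5*, chr2:140170652-140170681, plus strand: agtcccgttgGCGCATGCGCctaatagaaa
*Uqcrc1*, chr9:108936668-108936697, plus strand: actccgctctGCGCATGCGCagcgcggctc

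The 7 genes span complexes I, III and IV, ATP synthase and the assembly factors. The element ended 32, 40, 152, 50 and 103 bases before the RefSeq transcript start in *Atp5g2*, *Atp5k*, *Cox6a1*, *Ndufa11* and *Ndufaf4*, and it lay past the start in *Ndufaf5* and *Uqcrc1*. With the letters GCGCA and GCGC parted by any base (both strands, which includes the form above), 17 of 72 genes (23.6%) had a match, against 5.19% of all genes with a window. The core of the element for ETS factors such as GABP (CCGGAAG, both strands) was also found in 17 of 72 genes (23.6%, against 9.93%), and 3 genes held both. The letters of the YY1 element (AAGATGG, both strands) were found in 12 genes (16.7%, against 7.28%). No window was held for 17 genes, among them *Atp5a1*, *Atp5mpl*, *Cox4i1*, *Cox4i2*, *Cox5b-ps*, *Cox6a2*, *Cox6c*, *Ndufa2*, *Ndufa4l2*, *Ndufaf6*, *Ndufb1-ps*, *Ndufb9*, *Ndufs1*, *Uqcrb*, *Uqcrc2* and *Uqcrq*.

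αKG replicate 3 stood apart from the other αKG libraries. It had 1529 genes at 0, beside 1528 to 1653 in DMSO, while αKG replicates 1 and 2 had 822 and 875. Over all genes, the log2 values of αKG replicate 3 had a Pearson correlation of 0.977 to 0.98 with the DMSO libraries but of 0.962 and 0.963 with the other αKG libraries, whereas αKG replicates 1 and 2 had 0.954 to 0.961 with DMSO. Group results are therefore given with and without αKG replicate 3. This library was singled out by its likeness to DMSO, and leaving it out widens the group difference. Calls and p-values without it are thus descriptive. DMSO replicates 2 and 3 were close to sampling noise (chi-square 1.022 per gene, 4 of 13077 genes over 25), though no more alike than other DMSO pairs by correlation (0.984 against 0.983). With their mean counted as 1 sample, limma called 19 of all genes and 0 of the 89. All 13 cardiomyocyte markers were present in every library, from *Nkx2-5* (166 to 283) to *Ttn* (51569 to 84136), and 0 of the 13 passed the adjusted limma test between groups (4 at an unadjusted p under 0.05, 2 in each direction). Without αKG replicate 3, limma called 4 of the 13 higher and 2 lower, where 19.3% of all genes were called higher and 17.9% lower. In bulk RNA, fewer cells of a type and less RNA per cell cannot be told apart.

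Whether αKG-treated cells carried less or more transcript for the oxidative phosphorylation machinery was asked first over the 89 genes. The levels were mostly lower in αKG, none by enough to pass the test over all genes. The log2 difference (αKG minus DMSO, on values with a pseudocount of 1) was below 0 in 80 of 89 genes, against 47.1% of all genes, and its median was -0.21, against 0.04 over all genes. In 40 of 89 genes (44.9%) every αKG library was below every DMSO library, against 14.6% of all genes. The reverse order, with every αKG library above every DMSO library, was found in 0 of the 89 genes, against 13.7% of all genes.

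At a Benjamini-Hochberg adjusted p under 0.05 (limma on log2(value + 1), n = 3 and 3), 0 of the 89 genes passed, against 3.78% of all genes (0.952% lower and 2.83% higher in αKG). The 3 with the lowest adjusted p were *Ndufaf8* (0.07), *Cox5a* (0.0797) and *Ndufaf1* (0.0802). Without adjustment, 28 genes were lower and 1 was higher in αKG at a limma p under 0.05, where 28.1% of all genes had such a p (12.4% lower and 15.7% higher). Limma-voom on estimated reads, the other tool run, also called 0.

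Many of these transcripts are abundant and protein coding, so the shares were also taken among protein-coding genes with a mean of at least 100. Of these, 63.1% had a log2 difference below 0 and 27.2% had all αKG libraries below all DMSO libraries, against 70 of 74 (94.6%) and 34 of 74 (45.9%) oxidative phosphorylation genes of the same level. At an unadjusted limma p under 0.05, 23.7% of the abundant genes and 24 of 74 (32.4%) were lower in αKG. Among other abundant genes with short transcripts this share was above 23.7%, with 31 of 92 under 800 bases and 187 of 614 from 800 to 1500 bases. With adjustment, 5.83% of the abundant genes and 0 of 74 passed.

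The group difference was carried unevenly by the 3 αKG libraries. The median log2 difference of the 89 genes from the DMSO mean was -0.33 in αKG replicate 1, -0.21 in replicate 2 and -0.05 in replicate 3. Each DMSO library differed from the mean of the other DMSO libraries by a median of 0.00, -0.05 and 0.06. The medians of replicates 1 and 2 thus lay outside the DMSO spread, and that of replicate 3 lay beside the lowest DMSO library. Against counting noise, the chi-square per gene over 85 to 88 of these genes was 0.526 to 0.663 between DMSO libraries, 3.67 to 9.16 between αKG replicate 1 or 2 and DMSO, and 0.741 to 1.19 between αKG replicate 3 and DMSO. In 71 of 89 genes αKG replicates 1 and 2 were both below all DMSO libraries (27.4% of all genes, 48.6% of abundant protein-coding genes). Replicate 3 was within the DMSO range in 39 of 89 genes, close to the share over all genes (9173 of 20066). Among genes with a mean of at least 100 it was so in 33 of 74, against 2542 of 8176 protein-coding genes.

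Without αKG replicate 3, limma called 55 of the 89 genes, 52 lower and 3 higher in αKG. Of all genes, 37.2% were then called (17.9% lower and 19.3% higher), and of abundant protein-coding genes 34.9% were called lower, against 46 of 74 (62.2%). The 3 genes called higher were *Cox4i2*, *Cox6b2* and *Ndufa4l2*. The 52 called lower included 27 complex I, 4 complex III, 7 complex IV and 8 ATP synthase genes, 5 assembly factors and *Cox5b-ps*.

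**Figure D1:**
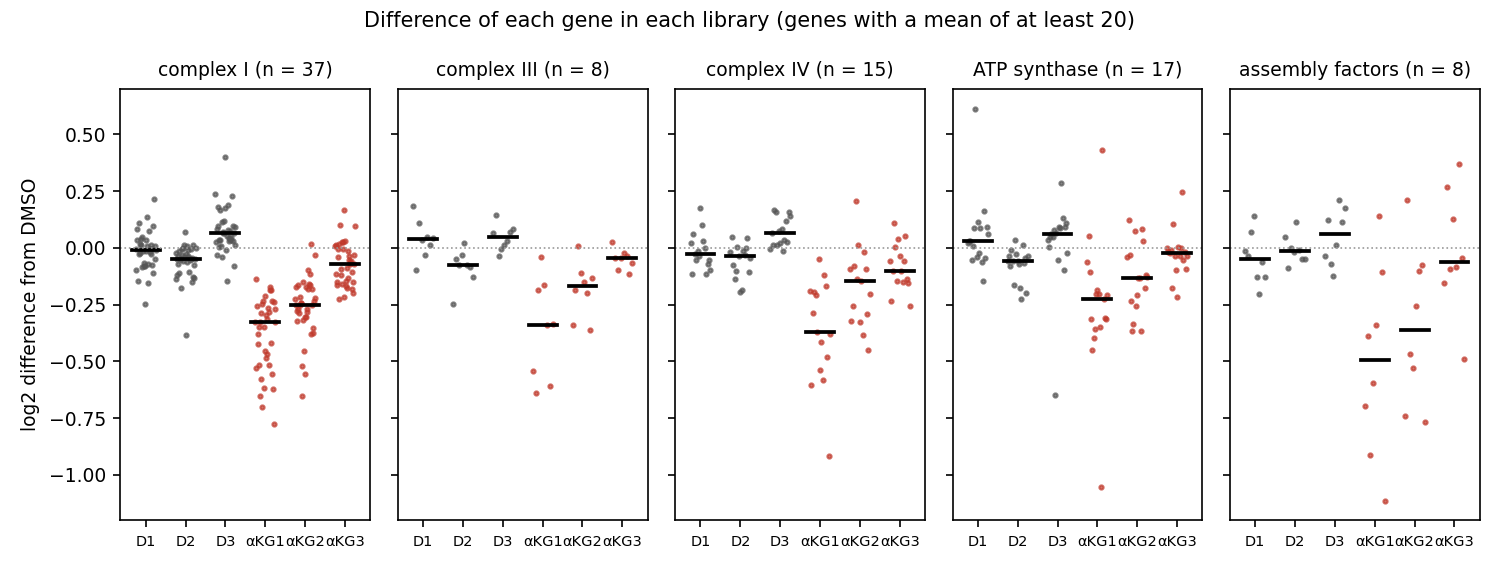
Log2 difference of each gene from DMSO (y axis) in each library (x axis), for the 85 genes with a mean of at least 20. DMSO libraries (D1 to D3, grey) are set against the mean of the other DMSO libraries and αKG libraries (red) against the mean of all 3, and black bars are medians. In complex I the medians of αKG1, αKG2 and αKG3 lie at -0.33, -0.25 and -0.07.

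Summing the subunits showed the same order in each complex, with αKG replicate 1 lowest and replicate 3 closest to DMSO. Complex I summed to 11287, 11085 and 11601 normalized counts in DMSO, listed in every sentence of values from replicate 1 to replicate 3, and to 9063, 9731 and 10852 in αKG. All αKG libraries were thus below all DMSO libraries, and the mean was 12.7% lower. Complex III summed to 3397, 3266 and 3391 in DMSO and to 2830, 2991 and 3253 in αKG, a mean 9.75% lower, and complex IV to 3678, 3624 and 3812 and to 3023, 3391 and 3495, a mean 10.8% lower. Neither overlapped between groups. ATP synthase summed to 7738, 7438 and 7787 in DMSO and to 7007, 7291 and 7532 in αKG, 4.93% lower in the mean, and here αKG replicate 3 was above DMSO replicate 2. Over all 81 genes other than the assembly factors, *Cox5b-ps* included, the sum was 9.80% lower, with 84.2%, 89.9% and 96.5% of the DMSO mean in αKG replicates 1 to 3. A sum over chosen genes was given no test.

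**Figure D2:**
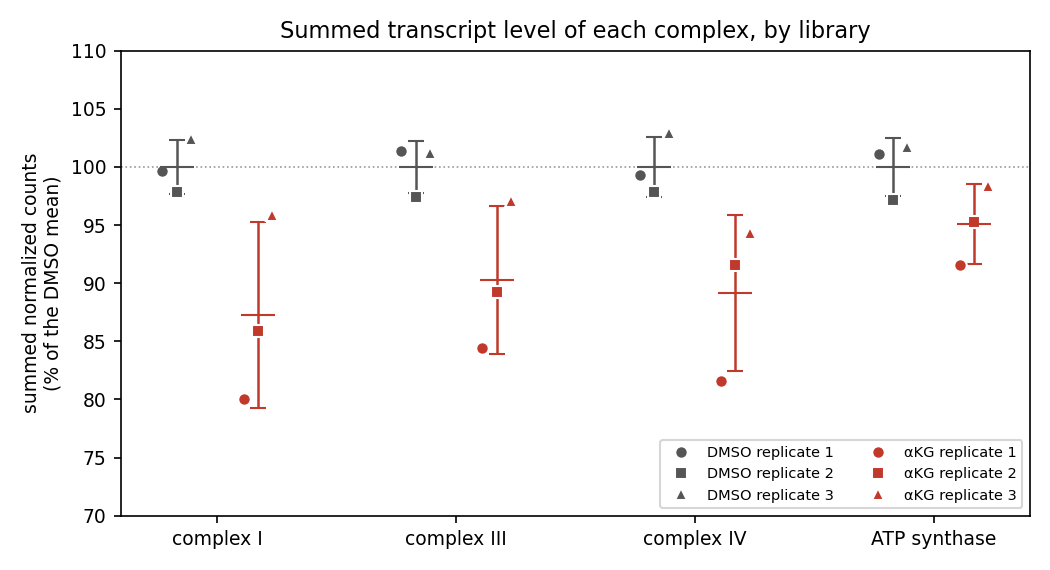
Summed normalized counts of each complex as a percentage of its DMSO mean (y axis, from 70 to 110), with 1 point per library, the group mean as a horizontal bar and the SD (n = 3) as error bars. For complexes I, III and IV all αKG points lie below all DMSO points, from 80.0% to 97.1%, while for ATP synthase the groups overlap.

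Complex I takes electrons from NADH in its matrix arm and pumps protons in its membrane arm. All 37 genes had a log2 difference below 0 (median -0.23, from -0.50 to -0.07), 22 did not overlap between groups, and 0 passed the adjusted test. For this and the lists that follow, the shares to read such counts against are 47.1% of all genes and 63.1% of abundant protein-coding genes below 0, and 14.6% and 27.2% lower without overlap. Other abundant genes with short transcripts had higher shares. Under 800 bases, 72 of 92 were below 0 and 36 were lower without overlap, and from 800 to 1500 bases 474 and 218 of 614. The 16 genes of the matrix arm (median -0.21) and the 20 of the membrane arm (median -0.24) had medians that were close to each other. The conserved redox core, the flavin and iron-sulfur subunits of complex I with the Rieske protein of complex III, was lower in 8 of 8 genes (median -0.20), and 6 of the 8 did not overlap (27.2% of abundant protein-coding genes).

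Within the matrix arm, *Ndufs8* and *Ndufs7*, which carry the iron-sulfur clusters nearest to ubiquinone, had the largest differences. *Ndufs8* (ENSMUSG00000059734, GRCm38 chr19:3908863-3912774) was at 288, 245 and 251 in DMSO and at 152, 204 and 227 in αKG. *Ndufs7* (ENSMUSG00000020153, chr10:80249121-80256794) was at 287, 304 and 316 in DMSO and at 196, 233 and 272 in αKG. Neither gene overlapped between groups, and in both αKG replicate 1 was lowest. Their log2 differences were -0.44 ± 0.15 and -0.38 ± 0.12 (SE, limma adjusted p = 0.104 and 0.0951), and without αKG replicate 3 they were -0.56 and -0.50 (adjusted p = 0.0219 and 0.00824).

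The abundant catalytic subunits of the same arm had smaller differences. The NADH-oxidizing flavoprotein *Ndufv1* was at 719, 692 and 738 in DMSO and at 606, 608 and 700 in αKG, with αKG replicate 3 inside the DMSO range. *Ndufs1*, the largest subunit, was at 1132, 1114 and 1182 against 1015, 1056 and 1101 (log2 difference -0.11), without overlap. The smallest differences of the complex, -0.07 and -0.08, were those of the accessory subunits *Ndufv3* and *Ndufs4*, and both overlapped.

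In the membrane arm the log2 difference furthest below 0 was that of *Ndufb1-ps*, annotated as protein coding in spite of its name, at 99, 97 and 103 in DMSO and 61, 63 and 89 in αKG (log2 difference -0.50). It is named here after its values were seen. *Ndufb10*, an accessory subunit with a high level per kilobase of transcript (486 ± 15.0 in DMSO, SD, n = 3), was at 345, 356 and 367 against 302, 321 and 362, so that αKG replicate 3 lay within the DMSO range (log2 difference -0.12 ± 0.09, limma adjusted p = 0.416). *Ndufa11*, one of the genes with an NRF1 element, was at 248, 233 and 235 against 165, 200 and 220 and did not overlap. *Ndufab1*, the mitochondrial acyl carrier protein found in both arms, was at 325, 333 and 356 against 284, 235 and 344.

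**Figure D3:**
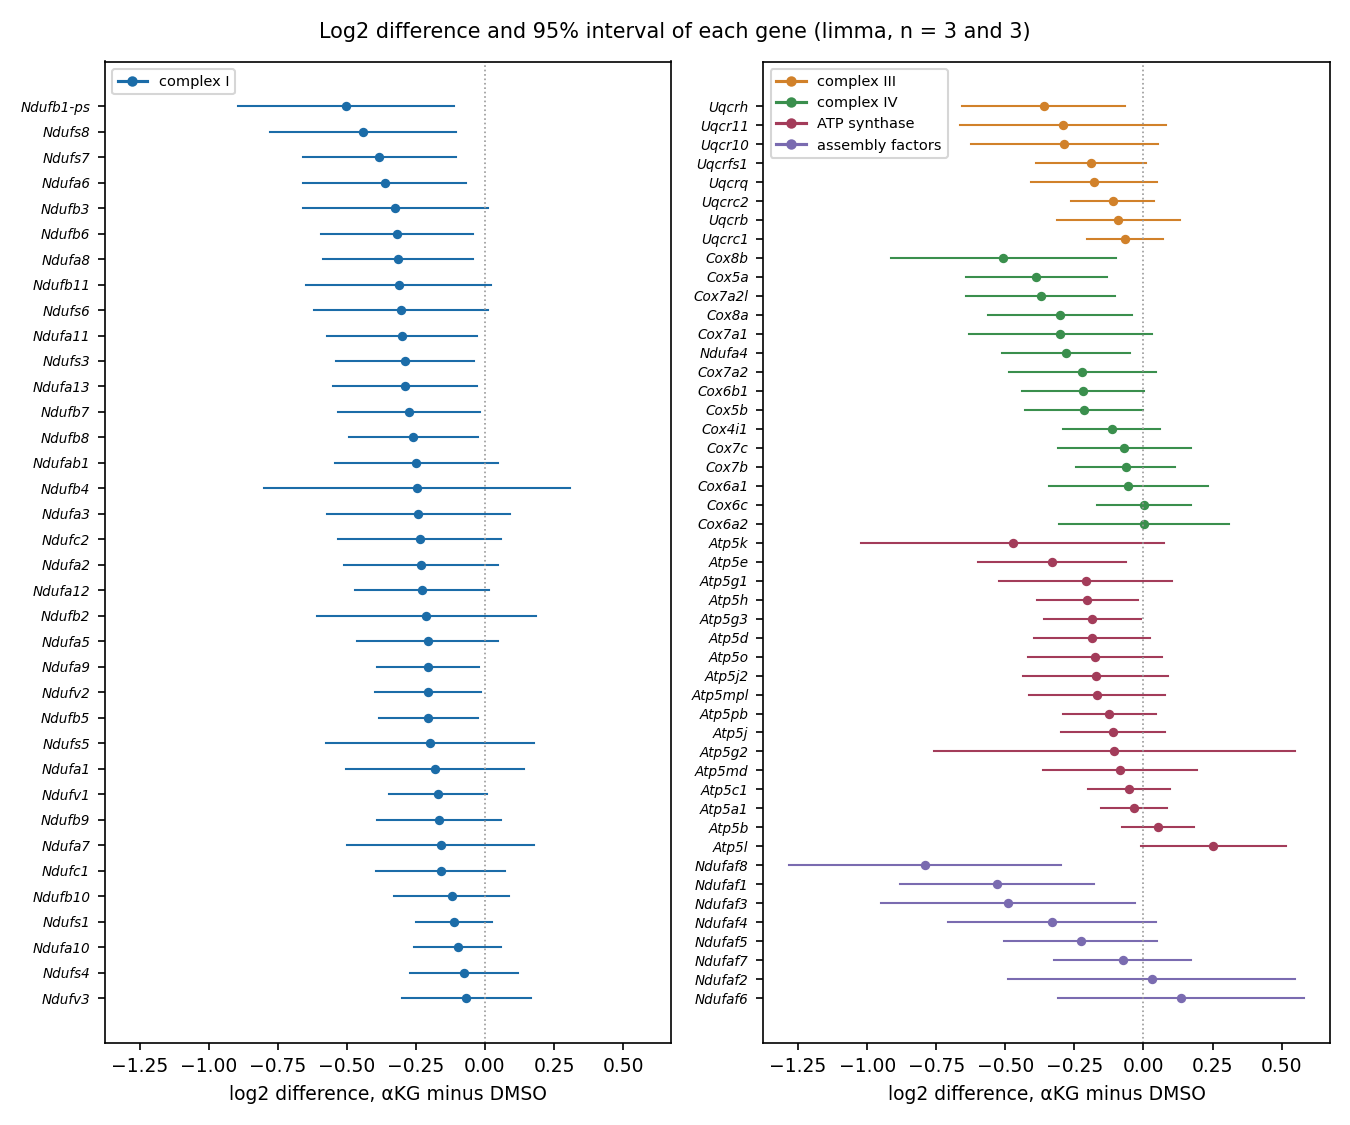
Log2 difference between αKG and DMSO (x axis) with its 95% interval from limma (n = 3 and 3) for 84 genes with a mean of at least 20, ordered within complex I (left) and within complexes III and IV, ATP synthase and assembly factors (right). All 36 complex I points drawn lie left of 0, and the points furthest right are *Atp5l* at 0.25 and *Ndufaf6* at 0.14. Intervals are not adjusted for the number of genes.

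Complex III transfers electrons from ubiquinol to cytochrome *c*. Its 8 genes all had a log2 difference below 0 (median -0.19, from -0.36 to -0.07), and 2 of them did not overlap, a share close to the 27.2% of abundant protein-coding genes. *Uqcrh*, the hinge protein next to cytochrome *c1*, was at 229, 219 and 235 in DMSO and 149, 177 and 210 in αKG, without overlap. *Uqcr10*, a small subunit with the highest level per kilobase of the complex (516 ± 52.1), was at 243, 199 and 230 against 153, 176 and 227, and here αKG replicate 3 was within the DMSO range (log2 difference -0.29 ± 0.15, limma adjusted p = 0.244). The core protein *Uqcrc1* (507 ± 7.29 per kb) was at 851, 827 and 837 against 814, 776 and 813. It did not overlap although its log2 difference was only -0.07 ± 0.06 (limma adjusted p = 0.507). The Rieske iron-sulfur protein *Uqcrfs1* was at 607, 573 and 602 against 469, 517 and 580 and overlapped.

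Complex IV, cytochrome *c* oxidase, held genes on both sides of DMSO, from -0.51 to 2.33 on the log2 scale. The difference was below 0 in 13 of its 18 genes (median -0.16, against 63.1% of abundant protein-coding genes below 0), and 8 genes did not overlap (against 27.2%). Furthest below DMSO among the abundant genes were *Cox8b*, *Cox5a* and *Cox7a2l*. *Cox5a* (ENSMUSG00000000088, GRCm38 chr9:57521274-57532426), a ubiquitous subunit on the matrix side, was at 279, 301 and 303 in DMSO and at 193, 235 and 250 in αKG. *Cox7a2l* (ENSMUSG00000024248, chr17:83501918-83517330), which takes part in joining complexes III and IV into supercomplexes, was at 249, 244 and 244 against 164, 188 and 221. Both were without overlap, at -0.39 ± 0.11 and -0.37 ± 0.12 (limma adjusted p = 0.0797 and 0.095), and without αKG replicate 3 at -0.46 and -0.48 (adjusted p = 0.0129 and 0.0056). *Cox7a2l* and *Cox5b* have a near-identical copy elsewhere in the genome.

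Other complex IV genes lay closer to DMSO. *Cox6c*, the complex IV transcript with the highest level per kilobase (561 ± 16.4), was at 407, 407 and 428 in DMSO and at 400, 418 and 425 in αKG. The groups overlapped fully (log2 difference 0.00, 95% interval -0.17 to 0.17). *Cox4i1*, the common form of the largest nuclear-encoded subunit (524 ± 5.28 per kb), was at 405, 397 and 400 against 351, 375 and 385. This was -0.11 ± 0.08 (limma adjusted p = 0.357), without overlap. *Cox7b* and *Cox7c* were at -0.06 and -0.07, both with overlap.

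Complex IV has pairs of isoforms, one of them common to most tissues and the other restricted to muscle, testis, lung or hypoxic cells. Their ratio within a library does not depend on how that library was scaled, and 6 pairs were compared by exact permutation tests over the libraries (two-sided, where 3 against 3 cannot go below p = 0.1). The muscle forms made up between 37.4% and 54.6% of their pair in each library. *Cox6a2* was at 134, 131 and 148 in DMSO and 119, 159 and 138 in αKG, and its partner *Cox6a1* at 138, 131 and 151 and at 122, 132 and 151. The log2 ratio was -0.02 ± 0.02 in DMSO and 0.03 ± 0.21 in αKG (SD, n = 3 each, exact p = 0.9), so the share of the muscle form lay between 47.8% and 54.6% in every library.

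*Cox7a1*, another muscle form, was at 177, 149 and 165 in DMSO and 112, 130 and 159 in αKG, beside *Cox7a2* at 231, 202 and 229 and at 165, 199 and 205. Both genes were lower in αKG replicates 1 and 2, and the log2 ratio was -0.43 ± 0.04 and -0.51 ± 0.13 (exact p = 0.4). *Cox8b* (ENSMUSG00000025488, GRCm38 chr7:140898945-140900446), the muscle form lost in humans, was at 163, 159 and 180 in DMSO and 88, 122 and 150 in αKG. Its partner *Cox8a* was at 199, 210 and 208 and at 147, 168 and 187. Both were without overlap, with log2 differences of -0.51 ± 0.18 and -0.30 ± 0.12 (limma adjusted p = 0.116 and 0.133). Their log2 ratio was -0.30 ± 0.10 in DMSO and -0.51 ± 0.21 in αKG and overlapped between groups (exact p = 0.2).

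The remaining isoforms were near the limit of detection in DMSO. *Cox4i2*, a lung and hypoxia form that pericytes also express, was at 1, 4 and 3 in DMSO and 12, 20 and 1 in αKG, and *Ndufa4l2*, a target of the hypoxia factor HIF1, at 3, 0 and 3 and at 25, 25 and 2. *Cox6b2*, a testis form, was at 0, 2 and 9 in DMSO and 30, 29 and 2 in αKG. In all 3, αKG replicates 1 and 2 were above every DMSO library and αKG replicate 3 was at the DMSO level. They correspond to 8, 6 and 11 estimated reads over the DMSO libraries and to 29, 45 and 54 in αKG replicates 1 and 2, and a level under 3 reads in a library cannot be told from 0. None passed the test over all libraries (limma adjusted p = 0.331, 0.128 and 0.192), and without αKG replicate 3 all 3 did (adjusted p = 0.015, 0.0105 and 0.0301).

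Their common partners were near or below DMSO. *Cox6b1* was at 266, 268 and 269 in DMSO and 207, 243 and 242 in αKG, without overlap, and *Ndufa4*, with log2 difference -0.28 ± 0.10 (limma adjusted p = 0.122), at 214, 219 and 239 and at 172, 194 and 187, also without overlap. The log2 ratio of *Cox4i2* to *Cox4i1* was 1.56 higher in αKG (exact p = 0.3). With a pseudocount of 1, needed where a value is 0, the ratio of *Cox6b2* to *Cox6b1* was 2.40 higher (exact p = 0.2) and that of *Ndufa4l2* to *Ndufa4* 2.61 higher (exact p = 0.3). The groups overlapped in all 6 ratios, and after Benjamini-Hochberg adjustment the 4 exact permutation p-values without a pseudocount lay between 0.533 and 0.9.

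Markers of mural cells, which include pericytes and smooth muscle, varied in the same libraries. Their 9 genes summed to 3629, 3726 and 3610 in DMSO and 5095, 4802 and 4070 in αKG, and 2 of the 9 were called higher by limma (2.83% of all genes). These were the smooth muscle gene *Cnn1*, at 5, 10 and 12 in DMSO and 119, 167 and 30 in αKG (limma adjusted p = 0.0279), and the pericyte gene *Cspg4*, at 801, 846 and 777 and at 1576, 1282 and 1021 (adjusted p = 0.0362). As with the 3 rare isoforms, both were highest in αKG replicates 1 and 2, but here replicate 3 also lay above DMSO. The pericyte gene *Pdgfrb* was at 228, 251 and 220 against 347, 279 and 225, and the smooth muscle gene *Tagln* at 197, 209 and 173 against 296, 292 and 186, both above DMSO in αKG replicates 1 and 2. The muscle genes *Des* and *Acta2* were at 1410, 1377 and 1405 against 1723, 1743 and 1464, and at 970, 1020 and 1007 against 1019, 1020 and 1131. The other mural markers were rare, with the smooth muscle gene *Myh11* at 12, 6 and 8 against 13, 11 and 11, and the pericyte genes *Rgs5* at 2, 4 and 5 against 1, 6 and 2 and *Kcnj8* at 4, 3 and 3 against 1, 2 and 0. The part of these cells in the isoform values was not tested.

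**Figure D4:**
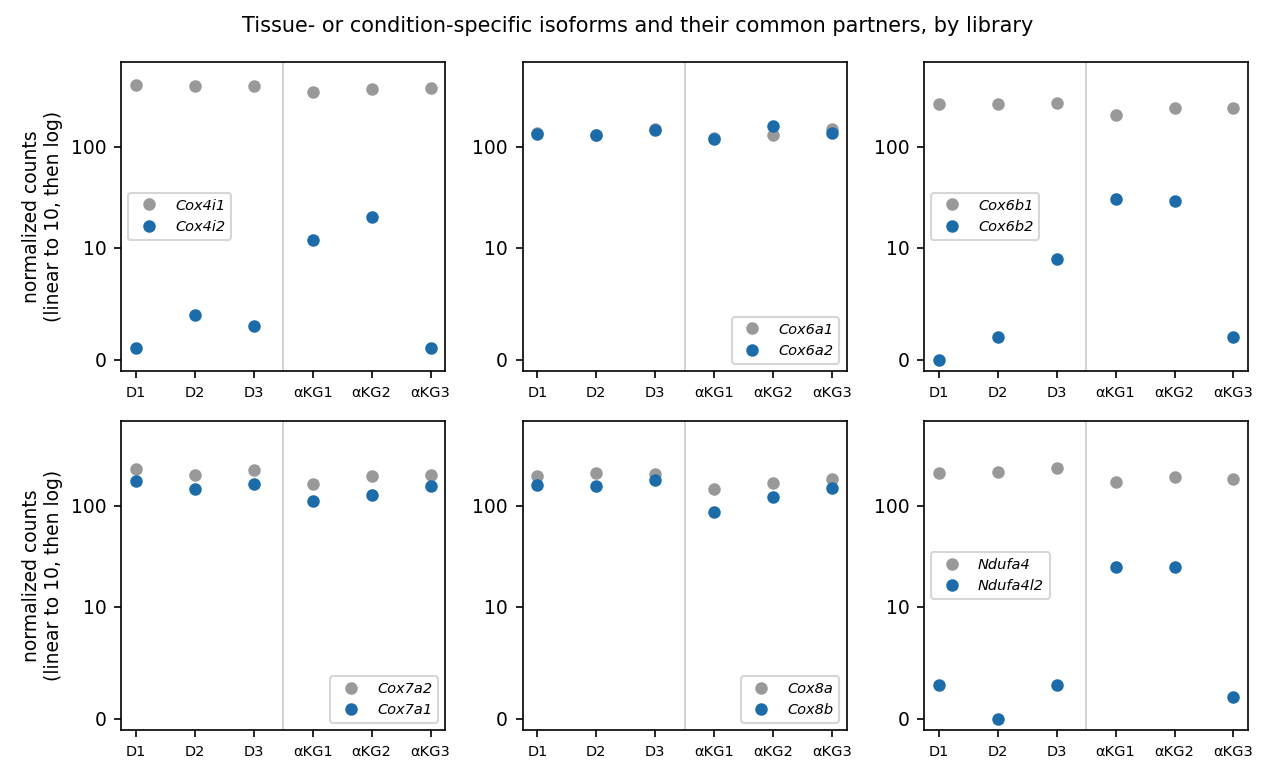
Normalized counts (y axis, linear up to 10 and logarithmic above) of 6 restricted isoforms (blue) and their common partners (grey) in DMSO libraries (D1 to D3) and αKG libraries. *Cox4i2*, *Cox6b2* and *Ndufa4l2* lie between 12 and 30 in αKG1 and αKG2 and between 0 and 9 elsewhere. *Cox6a2*, *Cox7a1* and *Cox8b* make up 37.4% to 54.6% of their pair in each library.

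ATP synthase makes ATP in its F1 head and passes protons through its membrane part. The 17 genes had a median log2 difference of -0.17, 15 were below 0 (against 63.1% of abundant protein-coding genes), and 4 did not overlap, a share no higher than the 27.2% of abundant protein-coding genes. The F1 genes were closest to DMSO (median -0.05 over 5 genes), and the 12 genes of the stalk and membrane part were at a median of -0.17. The catalytic β-subunit *Atp5b* (ENSMUSG00000025393, GRCm38 chr10:128083273-128090391) had the highest level per kilobase of all 89 genes (799 ± 12.6 in DMSO). It was at 1554, 1506 and 1535 in DMSO and at 1587, 1667 and 1510 in αKG, with overlap and a log2 difference of 0.05 ± 0.06 (limma adjusted p = 0.582). The α-subunit *Atp5a1* was at 1594, 1536 and 1603 against 1509, 1535 and 1579, with overlap and a 95% interval of the log2 difference of -0.15 to 0.09. The small F1 subunit *Atp5e* was at 158, 153 and 161 against 115, 122 and 139, without overlap (-0.33).

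In the membrane part, *Atp5g3*, *Atp5g1* and *Atp5g2* encode the same mature c-subunit of the proton-driven ring. *Atp5g3* made up most of the ring transcripts, at 462, 464 and 485 in DMSO and 408, 394 and 440 in αKG. It did not overlap (-0.18 ± 0.08, limma adjusted p = 0.161) and had a level of 651 ± 17.6 per kb. *Atp5g1* was at 247, 220 and 246 against 180, 188 and 255, and *Atp5g2*, with an NRF1 element, at 33, 25 and 18 against 19, 26 and 24. Both overlapped. The subunit e gene *Atp5k*, which also has the element, was at 108, 100 and 127 against 53, 86 and 111. *Atp5l* (ENSMUSG00000038717, chr9:44912557-44920742), subunit g, was the abundant gene furthest above DMSO, at 180, 194 and 205 in DMSO and 260, 204 and 229 in αKG. It overlapped (0.25 ± 0.12, limma adjusted p = 0.191), and its transcript has 11 near-identical copies, so its reads are uncertain.

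The 8 assembly factors help to build complex I but are not part of it. Their median log2 difference was -0.28, with 6 below 0 (47.1% of all genes, 63.1% of abundant ones) and 3 without overlap (14.6% and 27.2%). *Ndufaf1* (ENSMUSG00000027305, GRCm38 chr2:119655446-119662827), a factor of the membrane arm, lay furthest below DMSO of all 74 genes with a mean of at least 100. It was at 210, 216 and 208 in DMSO and at 130, 126 and 190 in αKG, so that all αKG libraries lay below the narrow DMSO range. The log2 difference was -0.53 ± 0.16 (limma adjusted p = 0.0802), and -0.72 without αKG replicate 3 (adjusted p = 0.00114). *Ndufaf8*, named after its values were seen, was at 52, 54 and 60 against 25, 32 and 39 (-0.79), also without overlap. *Ndufaf4*, with an NRF1 element, was at 504, 468 and 446 against 312, 327 and 516, where αKG replicate 3 was the highest of all 6 libraries. *Ndufaf2* and *Ndufaf6* were at 0.03 and 0.14 with overlap, and *Ndufaf2* has 11 near-identical copies. *Cox5b-ps* was at 8, 7 and 6 against 2, 3 and 2, few reads in any library, and *Cox5b* has almost the same sequence.

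Genes with and without the promoter elements had medians close to each other. The median log2 difference was -0.23 in the 7 genes with the NRF1 element and -0.21 in the 65 without. It was -0.29 in the 17 genes with CCGGAAG and -0.21 in the 55 without, and -0.19 in the 12 with AAGATGG and -0.22 in the 60 without. Among the 7, *Cox6a1* and *Uqcrc1* were nearest to DMSO at -0.06 and -0.07, and *Ndufaf4* and *Atp5k* furthest from it at -0.33 and -0.47. These are descriptions, with no test.

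Other genes of the pathway, taken from lists of their own, also lay mostly below DMSO. The 4 complex II genes had a median log2 difference of -0.24, and none overlapped between groups (27.2% of abundant protein-coding genes did not). *Sdhd*, a membrane anchor of succinate dehydrogenase, was at 519, 504 and 547 in DMSO and 363, 375 and 485 in αKG (-0.37, limma adjusted p = 0.0839). The anchor *Sdhc* was at 454, 440 and 468 against 329, 342 and 434, the iron-sulfur subunit *Sdhb* at 490, 467 and 499 against 386, 440 and 465, and the flavoprotein *Sdha* at 1298, 1291 and 1355 against 1141, 1192 and 1282. Cytochrome *c* (*Cycs*) was at 237, 234 and 232 against 209, 219 and 243 and overlapped. Cytochrome *c1* (*Cyc1*) was at 515, 509 and 501 against 417, 424 and 499 and did not.

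Further lists of the pathway also had medians below 0. Median log2 differences were -0.24 over 10 complex I assembly factors outside the name rule, -0.22 over 30 factors of complexes III and IV, and -0.26 over 4 of ATP synthase. They were -0.11 over 13 genes of mitochondrial DNA maintenance and transcription and -0.25 over 18 regulators of mitochondrial biogenesis. Of these 18, 13 were lower without overlap (14.6% of all genes and 27.2% of abundant protein-coding genes), among them the coactivator *Ppargc1a*, at 1611, 1615 and 1677 in DMSO and 1205, 1199 and 1524 in αKG. The list is mixed, and the 13 also included *Hif1a*, *Epas1*, *Foxo1*, *Mef2a* and *Mef2d*. *Nrf1* itself was at 274, 276 and 246 against 221, 213 and 242. In all of these lists, complex II and the cytochromes included, 0 genes passed the adjusted limma test. At an unadjusted p under 0.05, 2 of the 4 complex II genes, 0 of the 2 cytochromes, 4 of 10, 12 of 30 and 1 of 4 assembly factors, 3 of 13 maintenance genes and 12 of 18 regulators were lower, and 1 factor of complexes III and IV and 1 regulator were higher. The share lower at this threshold was 12.4% of all genes and 23.7% of abundant protein-coding genes, so the shares of the maintenance genes and the ATP synthase factors were close to the latter. None of the 13 subunit genes of the mitochondrial genome was listed in the table, so the other part of each complex was not analysed here.

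Reads of near-identical copies (at least 75 bases at 98% identity) could be lost or split for 23 of the 89 genes, and 34 shared exon positions with another gene, on either strand. The median log2 difference was -0.21 in the 66 genes without such copies and -0.20 in the 23 with them, and -0.21 in the 55 genes without exon overlap and -0.18 in the 34 with it.

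Transcript length moved with the group difference in these libraries. Among protein-coding genes with a mean of at least 100 outside the selection, the median log2 difference was -0.16 for transcripts under 800 bases (92 genes), -0.16 from 800 to 1500 bases (614), -0.13 from 1500 to 3000 (2440), -0.08 from 3000 to 6000 (3541) and 0.04 above 6000 bases (1415). The oxidative phosphorylation genes, with a median of 838 bases, are short. In the same classes they had medians of -0.23 (34 genes), -0.21 (22), -0.10 (15) and -0.25 (3). They were thus lower than other genes of their length in 3 classes and not in that from 1500 to 3000 bases, by differences smaller than that between their median and the median of all genes. Under 800 bases, 31 of the 34 were below 0 and 18 were lower without overlap, against 72 and 36 of 92 other genes. At an unadjusted limma p under 0.05, 13 of 34 and 31 of 92 were lower. From 800 to 1500 bases, 22 of 22 were below 0 and 11 lower without overlap, against 474 and 218 of 614. There, 10 of 22 and 187 of 614 were lower at that p, and from 1500 to 3000 bases 1 of 15 and 661 of 2440.

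After the log2 values of each library had been corrected for smooth trends with length and GC content, the median of all genes moved from 0.04 to -0.07. The median of the 89 genes was then -0.23, which is -0.16 relative to all genes, against -0.24 relative to them before. Protein-coding genes outside the selection with a mean of at least 100 were then at -0.19, against -0.09 before, so their median and that of the 89 genes lay closer together. The correction also turned the balance of calls over all genes, from 191 of 759 lower in αKG to 739 of 1189, and 0 of the 89 genes passed in it. With the correction and without αKG replicate 3, limma called 65 of the 89 lower and 3 higher, where 44.8% of all genes were called (28.9% lower and 15.9% higher). With the correction and the replicate number as a block, 2 were called, *Ndufaf1* and *Ndufv2*, both lower, where 9.15% of all genes were called (5.92% lower).

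**Figure D5:**
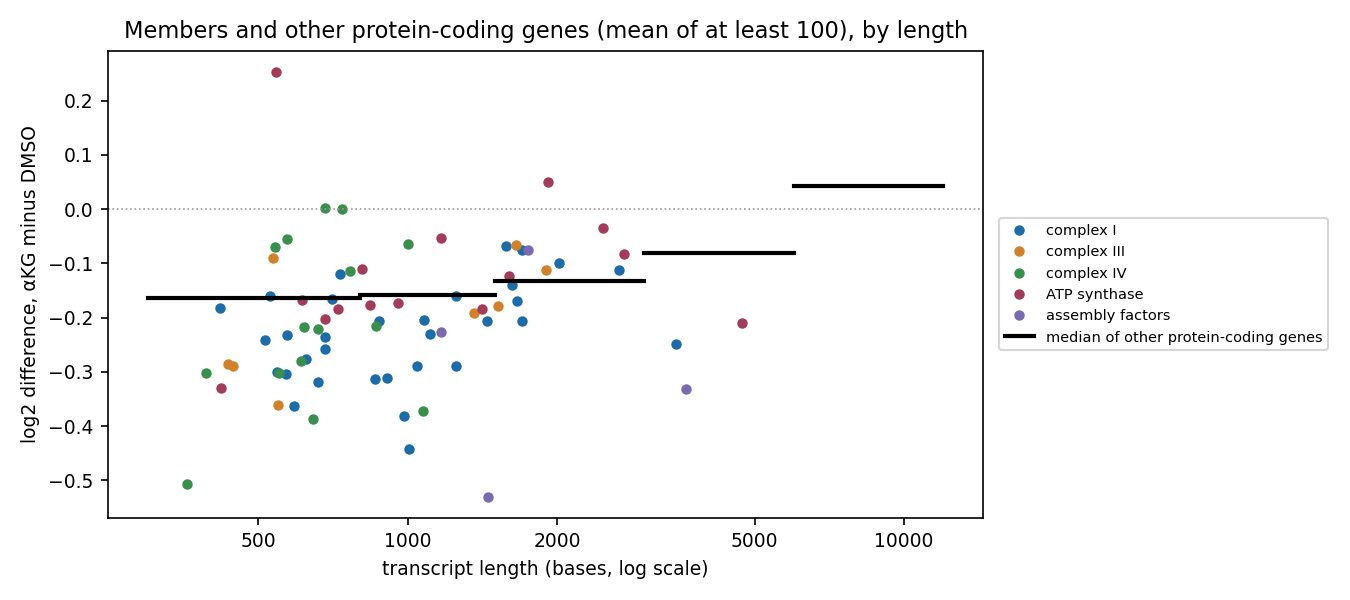
Log2 difference between αKG and DMSO (y axis) against transcript length in bases (x axis, log scale) for the 74 selected genes with a mean of at least 100 (points, coloured by complex). Black bars are medians of the other protein-coding genes of that level in 5 length classes, rising from -0.16 to 0.04, and most points under 1500 bases lie below the bars.

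Markers of other cardiac cells also differed between libraries. Of 11 endothelial markers, 8 were called lower in αKG (0.952% of all genes were; median log2 difference of the list -0.97), with sums of 2098 to 2227 in DMSO and 1439 to 1569 in αKG. The other 3 had log2 differences above 0 and did not pass: *Flt1*, the most abundant, was at 485, 510 and 499 in DMSO and 733, 719 and 411 in αKG, and *Tek* and *Vwf* had log2 differences of 0.38 and 0.47. The 11 fibroblast markers summed to 6220 to 6449 in DMSO and to 12167, 11717 and 6000 in αKG replicates 1 to 3, and the 10 epicardial markers to 527 to 586 and to 1320, 1288 and 532. Like the oxidative phosphorylation genes, the fibroblast and epicardial sums set αKG replicates 1 and 2 apart from replicate 3 and DMSO. Among the 11 fibroblast genes, *Tcf21* and *Lum* were exceptions, with log2 differences of -0.03 and 0.04 without αKG replicate 3. By limma, the fibroblast and epicardial lists had 0 calls of 11 and 10 genes (5 and 3 higher at an unadjusted p under 0.05), and the mural list the 2 of 9 named above. Without αKG replicate 3, limma called 9 of 11 fibroblast, 10 of 10 epicardial and 5 of 9 mural markers higher. Of the 11 endothelial markers, 8 were then called lower and 2 higher. Over all genes, 19.3% were called higher and 17.9% lower in that setting. The most abundant markers of each list were *Flt1*, *Cdh5* and *Kdr* (endothelial), *Fn1*, *Col1a1* and *Col1a2* (fibroblast), *Tbx18*, *Krt18* and *Upk1b* (epicardial), and *Des*, *Cspg4* and *Acta2* (mural), of which *Des* is also a cardiomyocyte gene. Only 4 of 9 macrophage markers were listed, all at 27 or less. Cardiomyocyte markers summed to 79952 to 82427 in DMSO and to 112929, 116272 and 84326 in αKG, most of it *Ttn*, and their median log2 difference was 0.07. The part of these cells in the values above was not tested.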

How the data were processed

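Bulk RNA-seq was analysed for 3 DMSO and 3 αKG libraries, grouped by their labels. The authors' steps were trimming (Trimmomatic 0.39), alignment (STAR 2.7.10a), counting per gene (featureCounts 2.0.3) and normalization (DESeq2 1.30.1) (versions and the builds mm10 and GRCm38.p5 from the submitters' processing notes). Reads mapping to several genes or places were left out, and the strand setting of the count is not given in the sources used here. The deposited values are normalized counts that the authors rounded to whole numbers, so they were treated as a score and not as counts. They do not show the noise of low counts in full, and since each library is scaled to the others, differences are relative to the other transcripts. Each listed gene reaches 2 or more in its highest library.

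Values were log2-transformed with a pseudocount of 1 and compared with limma 3.58.1 (R 4.3.3), with a variance trend and without a filter, over all 20066 genes, with Benjamini-Hochberg adjustment and a threshold of 0.05. Isoform ratios were compared by exact permutation tests (SciPy 1.17.1, Python 3.11.15). The limma step was tested on simulated data with known folds, set only in genes with a mean of at least 50. Libraries were drawn independently with a common dispersion (0.00407). No simulated library lay apart from its group as αKG replicate 3 does, so the rates may differ in these data. It called 43 of 50 genes at a fold of 0.5, 13 of 50 at 0.7, 33 of 50 at 1.5 and 49 of 50 at 2, and 0 unchanged genes. The median difference of the 89 genes was smaller than a fold of 0.7. The absence of calls among them therefore does not show that they were unchanged. Depth was estimated from the spacing of low values, and a level under 3 reads was taken as not detected. Lengths, copies and overlaps came from GENCODE M21, where all 89 genes had the same position as in the table, and promoter windows from RefSeq.

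Genes named are any with an adjusted p under 0.05, the 6 furthest on each side with a mean of at least 100 (on the higher side only 4 existed: *Atp5l*, *Atp5b*, *Cox6a2* and *Cox6c*), the isoform pairs, the 2 of each complex with the highest level per kilobase (1 gene is not reported here), complex II, the cytochromes, and the 3 most abundant markers of each list. Others were named for their role, their promoter element or after their values were seen. The members and lists were chosen with earlier results of these data known. Alternatives changed the pseudocount, filter, scaling, variance model, tool, replicate block, length and GC correction, and left out each library in turn.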

Additional observations from a re-analysis of the deposited data

How the results depend on the processing

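The limits are 3 libraries a group, values rounded by the authors, and 1 αKG library close to DMSO. The number of the 89 genes called by limma was 0 with 3 libraries a group under each other pseudocount, filter, scaling and variance model, by limma-voom, with DMSO replicates 2 and 3 averaged, and with the replicate block or the length and GC correction alone. Unadjusted, 29 had p under 0.05, and 8 to 36 under these alternatives. Leaving out 1 library in turn gave 0 to 55 calls, 55 without αKG replicate 3 and 0 without any other library. Combined with the length and GC correction, it gave 68, a setting chosen after seeing the data, and the correction with the replicate block gave 2. The median of the 89 genes stayed below 0 in every alternative, between -0.27 and -0.13 with 1 library left out, and at -0.31 in the setting with 68 calls. Over all genes, limma called 759 genes, 342 by limma-voom, 346 and 698 with pseudocounts of 0.1 and 10, 872 with a mean of at least 10, 915 scaled to the same total, 641 after quantile normalization, 1189 with the length and GC correction, 46 with the block, 1837 with both, 27 without a variance trend, 20 without it and with the correction, and 0 to 7466 with 1 library left out. The 7466 were those without αKG replicate 3, and 19 were called with the DMSO libraries averaged. The cause of these differences was not tested.

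Same-numbered libraries of the 2 groups deviated from their group means with correlations of -0.074, 0.136 and 0.002 over 13409 genes. Differently numbered libraries had correlations of -0.169 to 0.145. These values cannot settle whether libraries were paired, which the labels do not say. With the replicate block 0 of the 89 genes were called, and 21 had an unadjusted p under 0.05.

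Of 473 values of 25 named genes under 19 alternatives, 421 kept their direction and side of the threshold, 34 passed it and 18 reversed. No named gene passed the threshold in the main fit, so none could lose it. The reversed values belonged to genes close to 0. *Atp5b* was at -0.037 after quantile normalization. *Cox6a2* was at -0.022 scaled to the same total and -0.023 by limma-voom, and from -0.101 to 0.107 with 1 library left out. *Cox6c* was at -0.023 in both of these settings, at -0.061 with the length and GC correction (also with the block or without a variance trend), at -0.093 with it and without αKG replicate 3, and from -0.017 to 0.026 with 1 library left out. *Cox6a1* ran from -0.138 to 0.0145, and the log2 ratio of *Cox6a2* to *Cox6a1* differed by -0.059 to 0.14, below 0 without αKG replicate 2.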
